A study of Mus musculus with 96 samples.

Results

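The collagen genes of mouse liver were described across genotype, diet and liver zone. Every target of the expression table whose name was Col, a number, a and a number was taken, which gave 18 of 7394 gene targets. By the structural class of the chain, 6 were fibrillar (Col1a1, Col3a1, Col5a1, Col5a2, Col5a3 and Col27a1), 4 belonged to the type IV network of basement membranes (Col4a1, Col4a2, Col4a4 and Col4a6), and 8 were of other classes (Col6a3, Col12a1, Col13a1, Col14a1, Col15a1, Col18a1, Col19a1 and Col23a1). RNA was measured on 5 µm sections of fixed, paraffin-embedded liver with GeoMx digital spatial profiling, in which tags on the probes of a mouse whole-transcriptome panel are cut off by ultraviolet light inside a drawn area of illumination (AOI) and then sequenced. The study set mice with 1 disrupted copy of Gaa, the gene for the lysosomal enzyme that breaks down glycogen, against wild-type mice, on 2 diets and in 2 zones of the lobule.

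There were 16 male mice, 4 in each of 4 groups: HetKO mice on a high-fat diet (HFD), HetKO mice on a low-fat diet (LFD), Wt mice on HFD and Wt mice on LFD. HetKO mice carried the disruption in the whole body from birth, made by inserting LoxP sites around exons 4 to 5 of Gaa, and were backcrossed to C57BL/6, the background they shared with the Wt controls. All mice were about 8 weeks old when the diets began and ate them for 15 weeks. In each liver 3 AOIs were taken where E-cadherin was stained, called periportal, and 3 where Cyp2e1 was stained, called perivenous, giving 96 AOIs with a median of 212 nuclei (range 118 to 788) and 536938 deduplicated reads (range 60874 to 1772443). The 3 AOIs of a mouse and zone were averaged, and the mouse was the replicate. An AOI holds whatever cells lie inside the stained area, so fewer collagen-producing cells and less collagen RNA per cell cannot be told apart. All LFD livers were on 1 set of slides and all HFD livers on another, so the effects of diet and of the slides cannot be told apart, while both genotypes and both zones were on each set. Gaa itself, in the values described below, averaged 44.8 ± 7.79 in HetKO and 62.2 ± 5.84 in Wt perivenous areas on LFD, and 40.96 ± 5.28 in HetKO and 46.3 ± 7.28 in Wt perivenous areas on HFD (SD, n = 4 mice each). Its HetKO minus Wt differences lay between -0.53 and -0.18 on the log2 scale in the 4 comparisons, none past an adjusted p of 0.05. The stain genes followed the zone labels for Cyp2e1 in all 4 groups (log2 differences of 4.37 to 4.83), and for Cdh1, the E-cadherin gene, in both LFD groups. On HFD Cdh1 did not pass between zones: perivenous areas averaged 33.7 ± 7.33 and periportal areas 46.3 ± 9.99 in HetKO mice (-0.45, adjusted p = 0.0877), and 44.2 ± 10.4 and 44.6 ± 11.6 in Wt mice (-0.09, adjusted p = 0.937).

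Collagens are triple-helical proteins of the extracellular matrix, in which chains from one or several genes wind together. Fibrillar chains form the rope-like fibres that build up in liver fibrosis, type IV chains form the sheet under epithelia and around vessels, and the remaining classes decorate fibres, link cells to matrix or sit in the cell membrane. In healthy liver most fibrillar collagen RNA is made by stellate cells and portal fibroblasts, whereas type XVIII collagen, which yields the vessel-growth inhibitor endostatin, is known to be made by hepatocytes.

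The sequences before the annotated starts of Col18a1 and Col3a1 are shown because the results turn on these genes: Col18a1 was the collagen gene with the highest signal over the negative probe and the single one called lower on HFD on the deposited scale, and Col3a1 was the single one that passed between zones in the limma fit on that scale. Col18a1 lies on the minus strand of chromosome 10 (77052178 to 77166530) and has 2 annotated starts, which give long and short forms of the protein. Col3a1 lies on the plus strand of chromosome 1 (45311538 to 45349706). Each line gives the 250 bases before a start, read 5′ to 3′ on the strand of the gene, from RefSeq on GRCm38.p6. Capitals mark exact matches, on either strand, to any of 4 motifs. The TATA box was searched as TATAAA and the CCAAT box by the letters of its name. The GC box, which Sp1-like factors bind, was searched as GGGCGG. The core bound by forkhead factors was searched as TGTTTAC.
Col18a1, upstream start, chr10:77166531-77166780: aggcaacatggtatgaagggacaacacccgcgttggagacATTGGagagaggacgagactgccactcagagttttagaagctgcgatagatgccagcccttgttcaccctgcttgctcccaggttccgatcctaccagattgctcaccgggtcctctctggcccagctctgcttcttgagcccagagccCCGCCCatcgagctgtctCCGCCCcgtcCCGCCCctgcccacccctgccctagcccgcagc
Col18a1, downstream start, chr10:77113706-77113955: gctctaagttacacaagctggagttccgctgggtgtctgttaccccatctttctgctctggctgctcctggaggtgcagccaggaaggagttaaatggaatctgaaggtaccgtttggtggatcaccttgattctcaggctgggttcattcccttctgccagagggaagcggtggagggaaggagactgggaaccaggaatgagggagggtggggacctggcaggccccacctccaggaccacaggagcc
Col3a1, chr1:45311288-45311537: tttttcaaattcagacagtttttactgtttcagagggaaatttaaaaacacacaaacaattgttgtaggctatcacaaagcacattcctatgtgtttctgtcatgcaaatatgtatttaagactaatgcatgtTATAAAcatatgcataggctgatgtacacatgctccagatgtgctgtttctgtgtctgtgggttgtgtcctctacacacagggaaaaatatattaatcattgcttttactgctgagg
The upstream Col18a1 window held 3 GC boxes, 61 to 56, 43 to 38 and 33 to 28 bases before the start, and 1 CCAAT box, and 62% of its bases were G or C. The downstream window held none of the 4 motifs at 57.6% G or C, and the Col3a1 window held 1 TATA box at 35.2%. Of 32851 promoters of the same table, 12.4% held a TATA box, 33.8% a CCAAT box, 32.7% a GC box and 3.17% a forkhead core, and their median share of G or C was 52.4%. The genes Col4a1 and Col4a2, whose chains assemble together, run in opposite directions on chromosome 8 from annotated starts 21 bases apart. Promoter windows were held for 14 of the 18 genes.

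Apart from Col18a1, the collagen genes were measured close to the level of the negative probe. Values are reads scaled by the authors so that the third quartile over targets was 60.205 in every AOI, and NegProbe-WTX is the level of probes that match no mouse transcript. The limit of quantification (LOQ) of an AOI is the level set from those probes above which a target counts as detected. Col18a1 was above the LOQ in 96 of 96 AOIs, with a median of 8.79 times NegProbe-WTX and 120 reads. For the other 17 genes the medians ran between 1.499 times NegProbe-WTX for Col4a2 and 2.20 times for Col27a1, with 19 to 28.5 reads and 9 to 54 AOIs above the LOQ. Probes differ in how well they bind, so that these ratios say how far a gene stood above background and not how much RNA it had beside another gene. The median over all gene targets was 1.88 times, and only 3 collagen genes were above it: Col18a1, Col27a1 and Col4a1 (1.96 times). Col27a1, a fibrillar chain found in cartilage, was above the LOQ in 54 AOIs, Col4a1 in 40, Col5a3 in 39, Col3a1 in 37 and Col14a1 in 34. The chain that is the main one of scar tissue, Col1a1, was above it in 26. Col13a1, a transmembrane collagen, reached the LOQ in 9 AOIs and fell short of the 10 needed for a test, so that 17 genes were tested; Col6a3 passed with 12. The plot of values over the negative probe shows 1 gene far above the others.

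**Figure D1:**
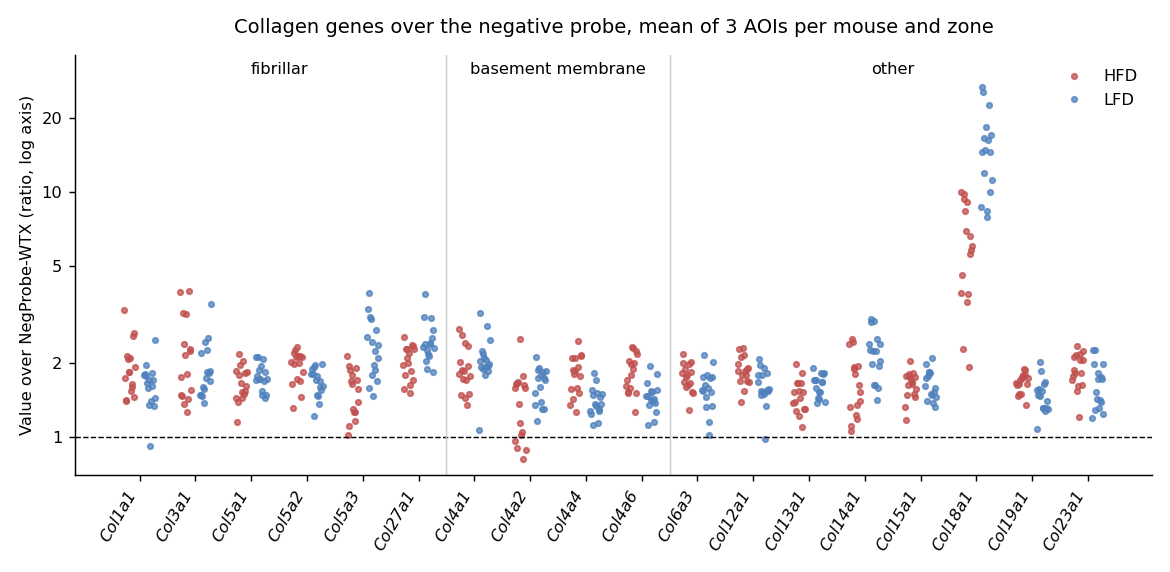
Each collagen gene's value divided by NegProbe-WTX (ratio, log axis), with a point for every mouse and zone (mean of 3 AOIs), HFD in red left of LFD in blue. Col18a1 lies between 1.93 and 26.7, and the other 17 genes between 0.817 and 3.96, mostly above the dashed line that marks the negative probe.

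NegProbe-WTX itself was higher on HFD on this scale. It averaged 25.8 ± 1.80 on HFD and 19.5 ± 2.63 on LFD in HetKO perivenous areas, and 23.6 ± 2.57 on HFD and 18.6 ± 2.01 on LFD in HetKO periportal areas (SD, n = 4 mice). In Wt mice it averaged 30.6 ± 7.59 on HFD and 19.1 ± 4.78 on LFD perivenously, and 29.7 ± 6.47 on HFD and 16.5 ± 4.45 on LFD periportally. The ratios of the means were 1.32, 1.27, 1.60 and 1.81 in that order, with two-sided exact permutation p of 0.0286, 0.0571, 0.0857 and 0.0571, where 0.0286 is the smallest that 4 mice against 4 allow. Adjusted together with the 4 tests of the median gene over the negative probe, none was below 0.0762. In words, only the HetKO perivenous mice were apart by diet, and in Wt mice 1 HFD liver (mouse 1, 20.5 perivenously and 21.2 periportally) lay among the LFD livers. The median gene lay 1.60 ± 0.369 times above the negative probe in Wt HFD and 2.18 ± 0.350 times in Wt LFD perivenous areas. Since most collagen genes sit near this probe, their diet differences are given below both as deposited and divided by it.

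**Figure D2:**
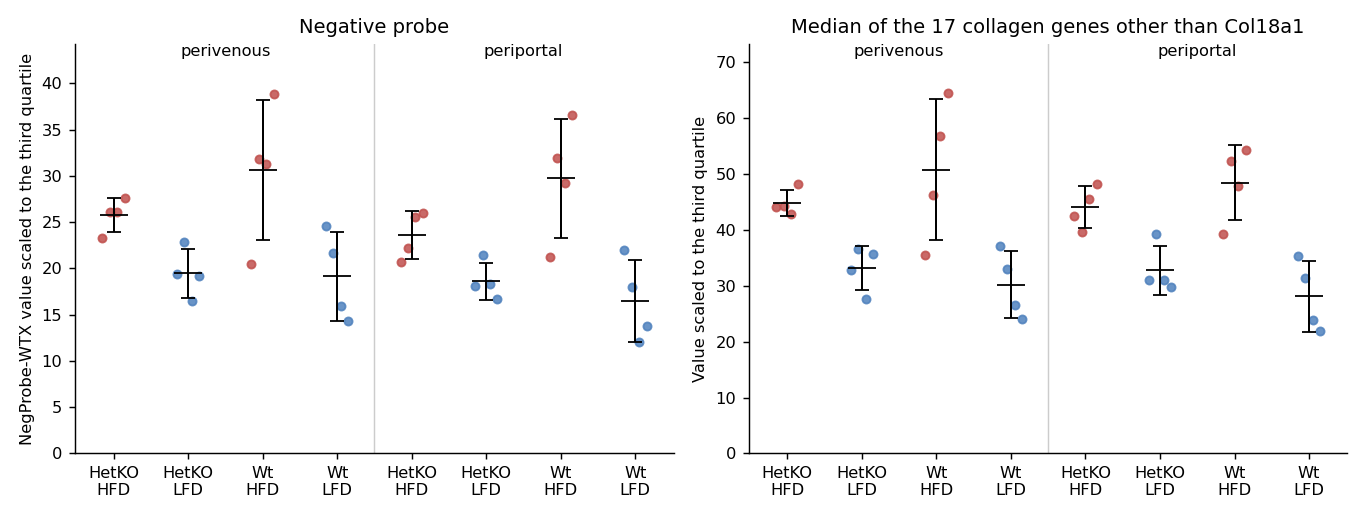
NegProbe-WTX (left) and the median of the 17 collagen genes other than Col18a1 (right), both as deposited values scaled to the third quartile, for every mouse (points, HFD red, LFD blue), with the group mean and SD of 4 mice. In both panels the HFD means lie above the LFD means of the same genotype and zone, and in both Wt HFD mouse 1 is the lowest of its group.

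On the deposited scale more collagen genes rose on HFD than fell in each genotype and zone. Of the 17 tested, 10 rose in HetKO perivenous areas, where 12.4% of all 6805 genes tested did, and 6 rose in HetKO periportal areas against 3.63% of all genes. In Wt mice 9 rose perivenously (10.2% of all genes) and 10 periportally (15.4%). In each comparison 1 gene fell, and it was Col18a1 each time, against 9.74%, 5.19%, 12.3% and 12.7% of all genes in the same order. The median difference of the 17 genes was 0.49, 0.39, 0.78 and 0.87 on the log2 scale in the same order, beside medians over all genes of 0.05, 0.02, 0.09 and 0.11. By class, the fibrillar chains that rose numbered 3, 3, 2 and 3 of 6, the type IV chains 2, 1, 2 and 3 of 4, and the others 5, 2, 5 and 4 of 7. Of the 17 genes, 7 reached the 10 AOIs of the filter on HFD AOIs alone and not on LFD AOIs alone (Col1a1, Col4a4, Col4a6, Col5a2, Col12a1, Col15a1 and Col23a1), and 3 the other way round (Col4a2, Col5a1 and Col5a3), so that a gene could enter through the diet in which it was high. With no filter and all 18 genes tested, 10, 6, 9 and 10 rose and 1 fell in each comparison.

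These counts depended on the scale, on the groups fitted together and on single mice. With reads per nucleus, the scaling the methods describe, 0, 0, 0 and 1 genes were called in either direction, and in HetKO periportal areas Col1a1 (-0.18), Col3a1 (-0.22), Col4a6 (-0.26), Col5a2 (-0.24), Col6a3 (-0.29) and Col23a1 (-0.13), all 6 of those that rose there, turned to lower values. Col18a1 moved down there as well, from -0.50 as deposited to -1.36, so the shift was not particular to those 6. The standard error on that scale was the same for each collagen gene named in a comparison, at 0.59, 0.53, 0.66 and 0.37 in the same order. With all 4 groups of a zone in 1 fit, 0 collagen genes were called in either HetKO zone, while the 21 calls in Wt mice still passed. The shares of all genes called in that fit and with reads per nucleus are not given here. Those counts therefore cannot be read as particular to collagen genes. After division by NegProbe-WTX the median collagen difference was 0.09 in HetKO perivenous, 0.06 in HetKO periportal, 0.12 in Wt perivenous and 0.03 in Wt periportal areas, beside all-gene medians of -0.35, -0.31, -0.57 and -0.73. The genes past the threshold on that scale were Col4a4 higher and Col18a1 lower in HetKO perivenous areas, and Col5a3 and Col18a1 lower in HetKO periportal areas. In Wt mice they were Col4a6 higher with Col5a3 and Col18a1 lower perivenously, and Col14a1 and Col18a1 lower periportally. Over all genes, 43.1%, 28.6%, 30.7% and 54.9% were lower and 0.411%, 0.0882%, 0.147% and 0.0588% higher on that scale, in the order HetKO perivenous, HetKO periportal, Wt perivenous and Wt periportal. With 1 mouse left out, the genes called in either direction numbered 5 to 11 in HetKO perivenous, 0 to 11 in HetKO periportal, 2 to 11 in Wt perivenous and 7 to 14 in Wt periportal areas. In HetKO perivenous areas the count was 5 without LFD mouse 1 or 3, 6 without HFD mouse 2 or 4 and 7 without HFD mouse 3. In HetKO periportal areas it was 0 without LFD mouse 1 or 3, 1 without HFD mouse 4, 2 without HFD mouse 3, 4 without HFD mouse 2 or LFD mouse 4, and 11 without LFD mouse 2. In Wt perivenous areas it was 2 without HFD mouse 2 or 3 or LFD mouse 3 or 4, and 4 without HFD mouse 4, and in Wt periportal areas it was 7 without HFD mouse 2. The shares of all genes called without each mouse are not given here either, so these counts cannot be read as particular to collagen genes. In the plot of diet differences the circles lie mostly right of the all-gene median and the diamonds mostly around 0.

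**Figure D3:**
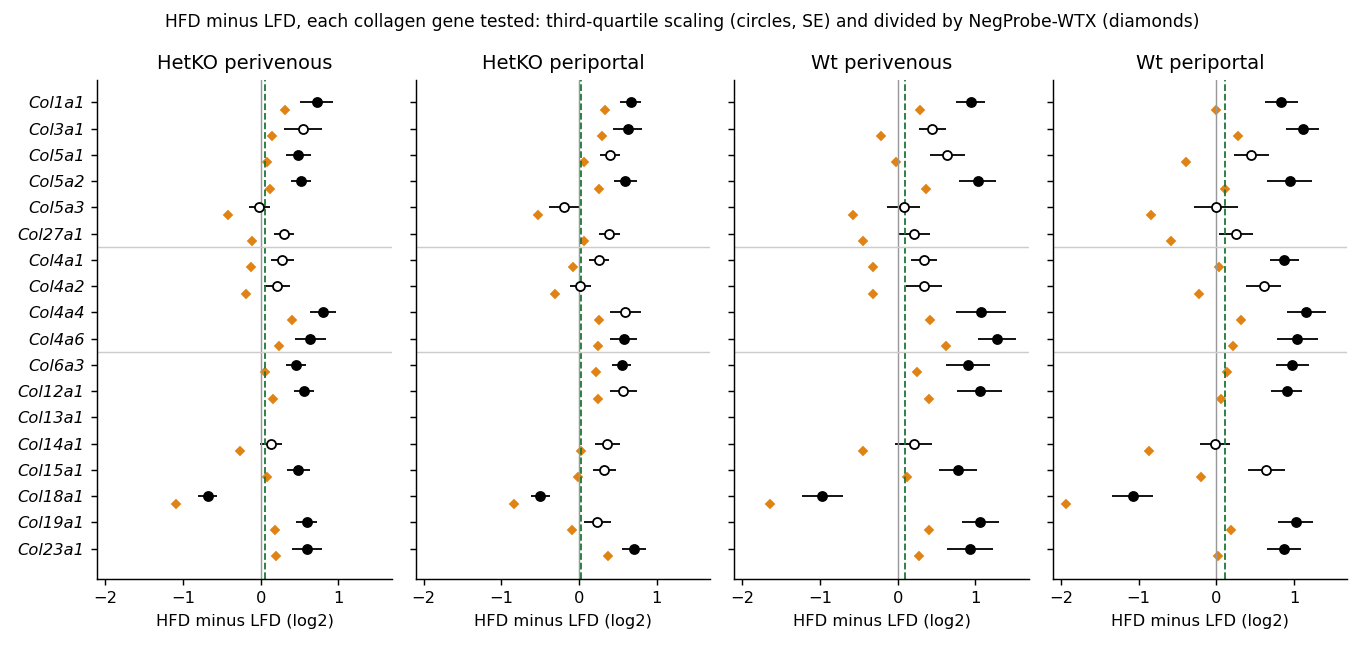
HFD minus LFD difference (log2) of each collagen gene tested, in 4 panels by genotype and zone, as deposited (circles with SE; filled where the adjusted p is under 0.05, open where not) and divided by NegProbe-WTX (orange diamonds). The dashed green line is the median of all genes tested on the deposited scale; Col18a1 is the gene left of 0 in every panel under both scales, and Col13a1 was not tested.

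Among the fibrillar genes, Col1a1, whose chain makes up most of type I collagen, was 60.19, 37.8, 68.8 and 53.1 in HetKO HFD perivenous areas, against 32.9, 30.8, 23.6 and 47.7 in HetKO LFD. Periportally it was 44.6, 45.9, 47.1 and 47.8 in HetKO HFD, against 30.2, 34.1, 24.6 and 28.7 in HetKO LFD. The diets did not overlap periportally, and 1 HFD mouse overlapped the LFD mice perivenously. In Wt mice it was 43.2, 48.9, 50.2 and 64.1 on HFD, against 22.9, 30.6, 29.1 and 23.4 on LFD perivenously, and 69.2, 55.4, 40.9 and 51.8 on HFD, against 39.7, 32.98, 21.4 and 27.4 on LFD periportally. Neither Wt zone had an HFD mouse within the LFD range. Col1a1 rose in all 4 comparisons, by 0.72 (SE 0.209, adjusted p = 0.0263) in HetKO perivenous, 0.66 (SE 0.135, adjusted p = 0.0155) in HetKO periportal, 0.94 (SE 0.188, adjusted p = 0.0113) in Wt perivenous and 0.84 (SE 0.214, adjusted p = 0.0146) in Wt periportal areas. With reads per nucleus its difference was 0.58, -0.18, 0.84 and 0.75 in the same order, without a call. Divided by NegProbe-WTX, its HFD and LFD mice overlapped except in HetKO periportal areas, where it was 1.98 ± 0.157 times on HFD and 1.58 ± 0.159 times on LFD.

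Col3a1, the chain of type III collagen that runs with type I in reticular fibres, was 81.1, 56.3, 43.3 and 54.1 in Wt HFD periportal areas, against 32.7, 27.02, 26.7 and 20.6 in Wt LFD. Every HFD mouse was above every LFD mouse there, and the difference was 1.11 (SE 0.213, adjusted p = 0.0064). In HetKO periportal areas it was 66.8, 52.1, 34.6 and 55.1 on HFD, against 29.1, 33.6, 25.3 and 40.6 on LFD, with 1 HFD mouse inside the LFD range and a difference of 0.62 (SE 0.182, adjusted p = 0.0449). Perivenously its differences of 0.55 in HetKO and 0.45 in Wt mice did not pass (adjusted p = 0.119 and 0.081). Col5a2, a chain of the type V collagen that starts and limits fibrils, was 49.8, 38.4, 55.1 and 50.7 in HetKO HFD perivenous areas, against 32.8, 35.6, 32.7 and 31.1 in HetKO LFD, with no overlap and a difference of 0.52 (SE 0.128, adjusted p = 0.0132). In Wt perivenous areas it was 35.3, 68.1, 62.9 and 65.6 on HFD, against 36.8, 31.9, 21.99 and 22.9 on LFD, with mouse 1 of the HFD group inside the LFD range and a difference of 1.03 (SE 0.242, adjusted p = 0.016). Periportally Col5a2 rose by 0.59 in HetKO (adjusted p = 0.0255) and by 0.95 in Wt mice (adjusted p = 0.0278).

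The third type V chain, Col5a3, did not follow Col5a2. It was 36.8 to 45.1 in HetKO HFD and 38.5 to 52.6 in HetKO LFD perivenous areas, and 37.4 to 45.6 in HetKO HFD and 29.8 to 64.6 in HetKO LFD periportal areas. In Wt mice it was 26.5, 40.3, 39.7 and 45.2 on HFD, against 35.99, 42.7, 35.98 and 27.1 on LFD perivenously, and 45.3, 32.8, 56.7 and 40.7 on HFD, against 56.5, 59.3, 46.7 and 21.98 on LFD periportally. The groups overlapped in all 4 comparisons, the differences lay between -0.19 and 0.08, and none passed (adjusted p of 0.548 to 0.997). Over NegProbe-WTX it was 1.25 ± 0.0604 times in Wt HFD and 1.89 ± 0.321 times in Wt LFD perivenous areas, without overlap, and it was above the LOQ in 6 of 48 HFD AOIs and 33 of 48 LFD AOIs. Its log2 difference on that scale was -0.58 in Wt perivenous areas, where the all-gene median was -0.57. All genes together were above the LOQ less often on HFD too: 39.8% against 62.9% in HetKO and 21.01% against 52.9% in Wt mice. Col27a1 had no call either: it was 44.8 to 63.3 in HetKO HFD and 42.2 to 49.03 in HetKO LFD perivenous areas, and 41.2, 50.05, 76.5 and 65.7 in Wt HFD, against 51.1, 55.3, 46.1 and 32.8 in Wt LFD periportal areas. Its 4 differences ran between 0.22 and 0.39, with adjusted p of 0.0806 to 0.431. Col5a1, the remaining type V chain, passed in HetKO perivenous areas (0.48, adjusted p = 0.042) and had differences of 0.39 to 0.64 elsewhere that did not.

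Within type IV, Col4a4 rose in 3 and Col4a6 in 4 of the 4 comparisons, Col4a1 in 1 and Col4a2 in 0. Col4a4 and Col4a6 entered the test through their HFD AOIs, and each of these calls also passed with no filter (adjusted p of 0.00682 to 0.0323 for Col4a4 and 0.00878 to 0.0482 for Col4a6). The α4 and α6 chains belong to basement membranes of specialised sites such as kidney, whereas α1 and α2 form the widespread type IV network. Col4a4 was 35.5, 46.1, 55.2 and 59.2 in HetKO HFD perivenous areas, against 24.8, 33.3, 22.4 and 28.8 in HetKO LFD. The groups did not overlap there, also after division by NegProbe-WTX (1.90 ± 0.309 times on HFD and 1.40 ± 0.102 times on LFD), and the difference was 0.80 (SE 0.163, adjusted p = 0.00706). In Wt periportal areas it was 28.5, 50.5, 61.4 and 69.4 on HFD, against 28.2, 22.2, 18.6 and 20.3 on LFD, where the lowest HFD mouse lay just above the highest LFD mouse, and the difference was 1.16 (SE 0.247, adjusted p = 0.00877). Col4a4 also rose in Wt perivenous areas (1.07, adjusted p = 0.0329) and was 29.7 to 54.4 on HFD and 20.4 to 39.2 on LFD in HetKO periportal areas, without a call (0.59, adjusted p = 0.0719). It was above the LOQ in 17 of 48 HFD AOIs and in 3 of 48 LFD AOIs, so that it passed the filter on low values through its HFD AOIs.

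Col4a6, on the X chromosome, rose in all 4 comparisons. It was 47.6, 60.23, 72.6 and 77.95 in Wt HFD perivenous areas, against 37.3, 30.6, 18.6 and 20.6 in Wt LFD, and 34.5, 54.6, 44.6 and 55.8 in Wt HFD periportal areas, against 32.5, 29.5, 13.4 and 20.4 in Wt LFD. No HFD mouse reached the LFD range in either Wt zone, and the differences were 1.27 (SE 0.241, adjusted p = 0.00874) and 1.04 (SE 0.268, adjusted p = 0.015). In HetKO mice it was 29.5, 39.3, 58.7 and 60.3 on HFD, against 26.6, 29.1, 25.4 and 34.7 on LFD perivenously, and 42.5, 35.5, 50.7 and 46.7 on HFD, against 24.4, 41.7, 25.8 and 25.7 on LFD periportally, with overlap in both zones and differences of 0.64 (adjusted p = 0.032) and 0.57 (adjusted p = 0.0479, and -0.26 with reads per nucleus). Like Col4a4 it passed the filter mostly on HFD, with 15 of 48 HFD and 4 of 48 LFD AOIs above the LOQ. Col4a1 was 57.7, 57.5, 58.95 and 54.2 in Wt HFD periportal areas, against 23.7, 36.4, 38.7 and 26.7 in Wt LFD, without overlap (difference 0.88, SE 0.188, adjusted p = 0.00885). Over NegProbe-WTX Col4a1 was 2.02 ± 0.538 times on HFD and 2.06 ± 0.877 times on LFD there. Its difference on that scale was 0.03 and did not pass (limma, adjusted p = 0.928). The all-gene median there was -0.73 on that scale and 0.11 on the deposited scale. In the other 3 comparisons Col4a1 differed by 0.25 to 0.34 and Col4a2 in all 4 by 0.01 to 0.61, none of them called.

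Of the genes for collagens that bind to fibres or form microfibrils, Col12a1 was 44.1, 44.3, 49.9 and 46.4 in HetKO HFD perivenous areas, against 35.2, 35.5, 25.2 and 30.2 in HetKO LFD (difference 0.55, SE 0.127, adjusted p = 0.0102), and 39.4, 63.6, 67.1 and 62.1 in Wt HFD periportal areas, against 36.9, 31.8, 25.1 and 27.5 in Wt LFD (0.91, SE 0.201, adjusted p = 0.00953). Neither pair overlapped. It also rose in Wt perivenous areas (1.05, adjusted p = 0.0239), and its difference of 0.57 in HetKO periportal areas did not pass (adjusted p = 0.058). Col19a1, of the same class as Col12a1, was 41.96, 35.2, 42.9 and 48.3 in HetKO HFD perivenous areas, against 32.5, 29.98, 22.99 and 24.997 in HetKO LFD (0.59, SE 0.139, adjusted p = 0.0112). In Wt mice it was 35.5, 57.2, 59.3 and 73.2 on HFD, against 32.2, 28.7, 26.6 and 18.4 on LFD perivenously (1.06, SE 0.242, adjusted p = 0.0147), and 34.9, 52.4, 43.3 and 60.4 on HFD, against 34.3, 19.4, 18.1 and 21.5 on LFD periportally (1.02, SE 0.226, adjusted p = 0.00923). These 3 comparisons had no overlap, while in HetKO periportal areas the mice overlapped (0.24, adjusted p = 0.399). Col14a1, the third member of that class, stayed without a call: it was 51.9, 53.1, 49.4 and 49.2 in HetKO HFD and 36.2, 48.2, 29.8 and 49.6 in HetKO LFD periportal areas, and 50.3, 42.5, 31.4 and 40.7 in Wt HFD and 52.8, 41.4, 35.7 and 42.1 in Wt LFD periportal areas. Its 4 differences lay between -0.02 and 0.36 (adjusted p of 0.168 to 0.948).

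Col6a3, a chain of the beaded microfibrils around cells, rose in all 4 comparisons on the deposited scale. In HetKO periportal areas it was 39.6, 39.04, 40.98 and 46.3 on HFD, against 29.5, 28.4, 26.95 and 29.9 on LFD (0.54, SE 0.125, adjusted p = 0.0218), and in Wt periportal areas 38.7, 63.9, 64.04 and 61.7 on HFD, against 34.3, 27.6, 21.2 and 29.7 on LFD (0.98, SE 0.209, adjusted p = 0.00877). The diets did not overlap in either, although mouse 1 of Wt HFD stood well below the other 3. Perivenously the differences were 0.46 in HetKO (adjusted p = 0.0231) and 0.90 in Wt mice (adjusted p = 0.0344). Col23a1, a transmembrane collagen, also rose in all 4. It was 37.96, 47.5, 39.2 and 61.1 in HetKO HFD periportal areas, against 23.3, 32.8, 26.3 and 30.2 in HetKO LFD (0.70, SE 0.16, adjusted p = 0.021), with no overlap. In Wt periportal areas it was 36.1, 56.8, 61.7 and 68.4 on HFD, against 26.4, 39.96, 23.8 and 31.5 on LFD, with mouse 1 of the HFD group inside the LFD range (0.87, SE 0.219, adjusted p = 0.0139). Perivenously Col23a1 differed by 0.60 in HetKO (adjusted p = 0.0381) and 0.93 in Wt mice (adjusted p = 0.0407). Col15a1, the multiplexin related to Col18a1, rose in the perivenous areas of HetKO (0.49, adjusted p = 0.0316) and Wt mice (0.78, adjusted p = 0.0371) and not periportally (0.32 and 0.64, adjusted p = 0.181 and 0.0561). The untested Col13a1 was 31.6 to 42.5 in HetKO HFD and 25.5 to 30.99 in HetKO LFD periportal areas.

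Col18a1 went the other way. In HetKO perivenous areas it was 154, 146, 151 and 165 on HFD, against 279, 227, 276 and 213 on LFD. In HetKO periportal areas it was 203, 205, 212 and 181 on HFD, against 299.6, 255, 269.6 and 304 on LFD. All HetKO mice on HFD were below all those on LFD in both zones, and the differences were -0.68 (SE 0.122, adjusted p = 0.00596) and -0.50 (SE 0.126, adjusted p = 0.0279). In Wt perivenous areas Col18a1 was 186, 113, 120.4 and 75.2 on HFD, against 194, 179.7, 259 and 322 on LFD. In Wt periportal areas it was 209, 123, 133 and 83.3 on HFD, against 189.9, 258, 321 and 350.2 on LFD. The Wt diets overlapped by mouse 1 of the HFD group and mice 1 or 2 of the LFD group, the remaining 3 HFD mice were below every LFD mouse, and the differences were -0.97 (SE 0.265, adjusted p = 0.0236) and -1.07 (SE 0.263, adjusted p = 0.0127).

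Divided by NegProbe-WTX, Col18a1 was also lower on HFD in all 4 comparisons. Col18a1 was 5.99 ± 0.444 times the negative probe in HetKO HFD and 13.1 ± 3.19 times in HetKO LFD perivenous areas, and 8.60 ± 1.27 times and 15.4 ± 2.72 times in HetKO HFD and HetKO LFD periportal areas (SD, n = 4 mice each). In Wt mice it was 4.60 ± 3.09 times on HFD and 13.7 ± 6.99 times on LFD perivenously, and 5.16 ± 3.32 times on HFD and 18.8 ± 8.70 times on LFD periportally. On this scale the differences were -1.09 (SE 0.166, adjusted p = 0.00163), -0.84 (SE 0.166, adjusted p = 0.0052), -1.64 (SE 0.473, adjusted p = 0.0367) and -1.93 (SE 0.46, adjusted p = 0.014) in HetKO perivenous, HetKO periportal, Wt perivenous and Wt periportal areas. The division shifted all genes down alike: relative to the all-gene median, Col18a1 differed by -0.74, -0.53, -1.08 and -1.20 after it and by -0.73, -0.52, -1.06 and -1.18 on the deposited scale. After subtraction of NegProbe-WTX the direction was the same in all 4 comparisons, but the HetKO periportal difference of -0.58 and the Wt differences of -1.36 (perivenous) and -1.43 (periportal) no longer passed (adjusted p = 0.114, 0.0751 and 0.0581). With reads per nucleus Col18a1 differed by -0.82 in HetKO perivenous, -1.36 in HetKO periportal, -1.07 in Wt perivenous and -1.16 in Wt periportal areas. Only the Wt periportal difference passed on that scale (limma, adjusted p = 0.0433). In the fit of all 4 groups of a zone, neither HetKO call was kept. Leaving out 1 mouse kept the call in 8 of 8 fits in HetKO perivenous and Wt periportal areas, in 2 of 8 in HetKO periportal and in 3 of 8 in Wt perivenous areas, always with the same sign. Hepatocyte genes moved the same way: 9, 6, 9 and 9 of 10 such genes fell on HFD in the 4 comparisons and none rose. Of all genes tested, 9.74%, 5.19%, 12.3% and 12.7% fell and 12.4%, 3.63%, 10.2% and 15.4% rose in the same order. Their summed value was 22915 to 37519 in HetKO HFD, against 41337 to 55611 in HetKO LFD perivenous areas, and 11936 to 48856 in Wt HFD, against 53989 to 101620 in Wt LFD periportal areas. The part of hepatocyte RNA as a whole in the Col18a1 difference was not tested.

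**Figure D4:**
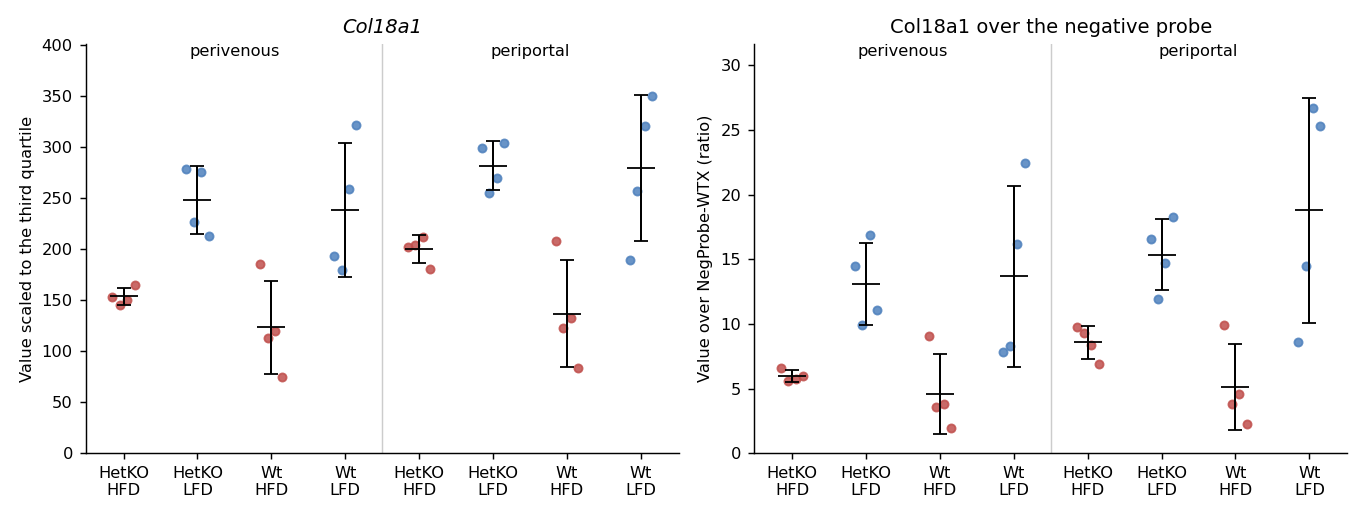
Col18a1 as deposited (left, value scaled to the third quartile) and divided by NegProbe-WTX (right, ratio), for every mouse (points, HFD red, LFD blue) with the mean and SD of 4 mice. HetKO HFD mice lie below all HetKO LFD mice in both zones, and in Wt mice the single HFD mouse among the LFD values is mouse 1.

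The number of AOIs above the LOQ was not higher on HFD for the collagen genes as a whole. Without Col18a1, collagen genes were above the LOQ in 208 of 816 gene and AOI pairs on HFD and in 221 of 816 on LFD. In HetKO mice the share was 34.3% on HFD and 34.8% on LFD, and in Wt mice 16.7% on HFD and 19.4% on LFD. Over all genes it was 39.8% on HFD and 62.9% on LFD in HetKO mice, and 21.01% on HFD and 52.9% on LFD in Wt mice. Of the 18 genes, 8 were above the LOQ in more HFD than LFD AOIs, 8 in fewer and 2 in equal numbers. The LOQ itself, on the scale of the values, averaged 50.6 ± 2.92 in HetKO HFD and 36.2 ± 5.48 in HetKO LFD perivenous areas, and 65.9 ± 6.20 in Wt HFD and 38.6 ± 8.58 in Wt LFD perivenous areas. Col5a2 was above it in 20 HFD and 7 LFD AOIs, Col1a1 in 18 and 8, and Col23a1 in 17 and 7. On the other side, Col4a1 was above it in 13 HFD and 27 LFD AOIs, Col14a1 in 11 and 23, and Col27a1 in 20 and 34. The plot of AOIs above the LOQ shows Col5a3 with the widest gap, 6 HFD against 33 LFD AOIs.

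**Figure D5:**
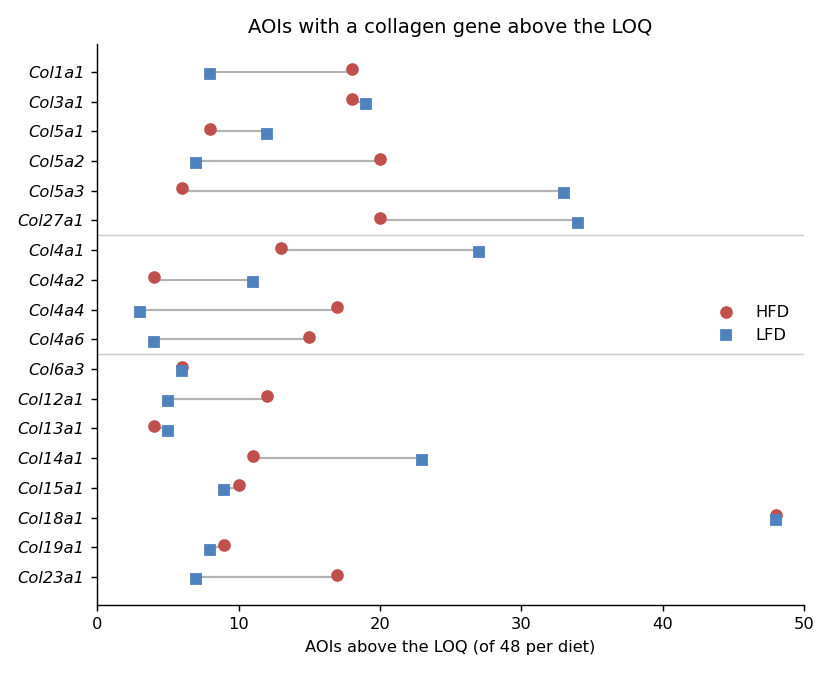
Number of AOIs, of 48 per diet, in which each collagen gene was above the LOQ, on HFD (red circles) and LFD (blue squares), both genotypes and zones together. Col4a4 (17 on HFD, 3 on LFD) and Col5a3 (6 on HFD, 33 on LFD) lie furthest apart in opposite directions, and Col18a1 is at 48 on both diets.

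Genotype changed no collagen gene past the threshold. In the HetKO against Wt comparisons, 0 of 17 collagen genes and 0% of all genes were called in either zone on either diet. With the mouse number as a replicate block, other genes were called on HFD, as given below, but 0 collagen genes. At an unadjusted p under 0.05 there were 2 collagen genes in HFD periportal areas, Col18a1 (0.62, SE 0.221) and Col6a3 (-0.43, SE 0.178), beside 14.6% of all genes, and 2 in LFD periportal areas, Col4a2 (0.51) and Col19a1 (0.47), beside 3.26% of all genes. There were none perivenously on HFD (15% of all genes) or on LFD (1.4%). edgeR and DESeq2 on the recovered reads called 0 collagen genes in each of the 4 comparisons as well. Scaled to nuclei in place of the third quartile, 16 of 17 were higher in HetKO than in Wt LFD periportal areas, where 91.7% of all genes were. The median HetKO minus Wt difference of the 17 genes was -0.08 perivenously and -0.10 periportally on HFD, and 0.13 perivenously and 0.14 periportally on LFD. Col18a1 in HFD periportal areas averaged 200.2 ± 13.6 in HetKO and 137 ± 52.3 in Wt mice, where 1 Wt mouse (209) lay with the HetKO mice; its adjusted p was 0.23. Without that mouse, Wt HFD mouse 1, Col18a1 and Col6a3 passed in HFD periportal areas, and Col4a6, Col5a2, Col15a1, Col18a1 and Col19a1 passed in HFD perivenous areas. The share of all genes called without that mouse is not given here, so these calls cannot be read as particular to collagen genes.

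The diet differences were not shown to differ between genotypes or zones. As differences of the HFD effect, HetKO minus Wt, 0 of 17 collagen genes passed in either zone, beside 0% of all genes. The median was -0.22 perivenously and -0.34 periportally, and 3 of 17 were positive in each. At an unadjusted p under 0.05 there were 3 periportally, Col4a1 (-0.62), Col4a2 (-0.60) and Col19a1 (-0.79), beside 10.8% of all genes, and none perivenously, beside 5.8%. Between zones, the perivenous minus periportal difference of the HFD effect was called for 0 of 17 genes in both genotypes, beside 0.0294% lower and 0% higher of all genes in HetKO mice and 0.323% lower and 0.118% higher in Wt mice. In Wt mice Col3a1 (-0.67, SE 0.209, adjusted p = 0.31) and Col4a1 (-0.54, adjusted p = 0.527) lay below an unadjusted 0.05, beside 7.73% of all genes, and in HetKO mice none did, beside 5.8%. edgeR and DESeq2 were not run on these differences of effects.

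Between zones, 1 collagen gene passed in 1 group in the limma fit. In Wt LFD mice Col3a1 was 43.2, 40.1, 36.2 and 36.4 in perivenous areas and 32.7, 27.02, 26.7 and 20.6 in periportal areas of mice 1 to 4. It was higher perivenously in all 4 livers, without overlap, by 0.56 (SE 0.138, adjusted p = 0.0232, with the mouse as a block), where 2.65% of all genes were higher and 2.84% lower perivenously. The call was lost without mouse 2 or mouse 4, by DESeq2, and after division by or subtraction of NegProbe-WTX, which averaged 19.1 perivenously and 16.5 periportally in these mice. Col3a1 differed by 0.36 in HetKO LFD (SE 0.111, adjusted p = 0.0813), 0.28 in HetKO HFD (SE 0.146, adjusted p = 0.378) and -0.11 in Wt HFD mice (SE 0.152, adjusted p = 0.884). Apart from that gene, limma called 0 of 17 in the other 3 groups, where 2.54% (HetKO HFD), 3.63% (HetKO LFD) and 0.705% (Wt HFD) of all genes were higher and 2.29%, 3.34% and 1.19% lower perivenously. Each of these groups had 2 collagen genes below an unadjusted 0.05, beside 15%, 17.7% and 10.3% of all genes. They were Col18a1 and Col14a1, both lower perivenously, in HetKO HFD mice, Col3a1 (higher) and Col15a1 (lower) in HetKO LFD mice, and Col4a6 and Col15a1, both higher, in Wt HFD mice. In Wt LFD mice Col4a1 (0.37) joined Col3a1 at that level, beside 15.7% of all genes. In these 3 groups edgeR called 1 gene each, Col18a1 in HetKO HFD, Col3a1 in HetKO LFD and Col4a6 in Wt HFD mice, and DESeq2 on the recovered reads none. Scaled to nuclei, 15 of 17 were higher perivenously in HetKO HFD mice, where 79.7% of all genes were. Col18a1 averaged 154 ± 8.32 perivenously and 200.2 ± 13.6 periportally in HetKO HFD mice, a difference of -0.37 (SE 0.118, adjusted p = 0.0875).

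Some genes that process, break down or bind collagen rose on HFD and others fell. The shares of all genes that rose were 12.4%, 3.63%, 10.2% and 15.4%, and of those that fell 9.74%, 5.19%, 12.3% and 12.7%, in the order HetKO perivenous, HetKO periportal, Wt perivenous and Wt periportal. The lists are short, and whether a list as a whole differed from all genes was not tested. Of 8 tested processing genes, 2 rose and 2 fell in HetKO perivenous areas, 0 rose and 1 fell in HetKO periportal areas, 0 rose and 2 fell in Wt perivenous areas, and 2 rose and 2 fell in Wt periportal areas. Ppib, a proline isomerase that helps the chains fold, fell in all 4 comparisons (between -1.09 and -0.66), and Crtap, its partner in prolyl 3-hydroxylation, rose by 0.72 in HetKO perivenous and 0.93 in Wt periportal areas. P4hb, the shared subunit of prolyl 4-hydroxylase, fell in HetKO perivenous areas and in both Wt zones (-0.46, -1.02 and -0.90). Of 5 genes for collagen breakdown, 0 to 1 rose and 1 to 2 fell per comparison, and the cathepsin gene Ctsl fell in all 4 (between -1.23 and -0.85). Of 2 receptors, Ddr1, a collagen-binding tyrosine kinase, rose in HetKO perivenous areas (0.48) and in both Wt zones (0.90 perivenously and 0.98 periportally). Of 8 other matrix genes, 1, 0, 1 and 1 rose and 2, 2, 4 and 3 fell in the same order. Among them the plasma proteins of hepatocyte origin Fn1 and Vtn fell in all 4 comparisons, and Ecm1 fell in both Wt zones. Postn, a matrix protein of activated fibroblasts, rose in HetKO perivenous (0.56), Wt perivenous (0.63) and Wt periportal areas (0.80). Postn was above the LOQ in 14 AOIs, with a median of 1.61 times NegProbe-WTX. Ddr1 was above it in 22 AOIs (1.72 times) and Crtap in 39 (1.92 times), against 93 for Fn1 and 95 for Vtn. The part of the negative probe in the rises of Postn, Ddr1 and Crtap was not tested. Neither of 2 tested genes for laminins and other basement membrane proteins passed in any comparison.

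Markers of the cell types known to make collagen passed the test on HFD in some comparisons and not in others. Of the listed markers, only 3 stellate cell genes and 1 portal fibroblast gene were in the table. None of 3 stellate cell genes (Reln, Rgs5 and Colec11) passed in any of the 4 comparisons, and their summed value was 116 to 170.5 in HetKO HFD, against 126 to 140.3 in HetKO LFD perivenous areas, and 115 to 150.1 in Wt HFD, against 103 to 152 in Wt LFD periportal areas. Of 10 tested endothelial genes, 3 rose in HetKO perivenous areas (Pecam1, Cdh5 and Cldn5) and 1 in each Wt zone (Cldn5), and none fell. Of all genes, 12.4% rose in HetKO perivenous, 3.63% in HetKO periportal, 10.2% in Wt perivenous and 15.4% in Wt periportal areas. The 1 portal fibroblast gene measured, Pi16, rose in HetKO perivenous (0.59) and Wt periportal areas (0.77) and was above the LOQ in 12 of 96 AOIs. None of these markers was at 0, and their medians lay between 1.41 and 4.00 times NegProbe-WTX. Of the single smooth muscle gene, Mylk, and the single tested cholangiocyte gene, Spp1, Mylk fell in Wt perivenous areas (-0.85) and Spp1 rose in HetKO perivenous areas (0.46). Of 8 Kupffer cell genes, Adgre1 rose in Wt perivenous areas (0.67) and Clec4f fell in Wt periportal areas (-0.72). Of 23 tested genes of receptor and keratin-associated families known from other tissues, 3 were called higher in HetKO perivenous, 2 in HetKO periportal, 9 in Wt perivenous and 12 in Wt periportal areas, and none lower, beside the 12.4%, 3.63%, 10.2% and 15.4% of all genes called higher. The HetKO perivenous count lay near the share of all genes. The sperm gene Prm1 rose in 3 of the 4 comparisons, HetKO perivenous areas excepted. The summed value of all 43 in the table was 1593 to 1893 in HetKO HFD, against 1303 to 1797 in HetKO LFD perivenous areas, and 1718 to 2695 in Wt HFD, against 1249 to 1942 in Wt LFD periportal areas. Their part, that of the negative probe and that of any cell type in the collagen differences was not tested.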

How the data were processed

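Liver sections of 16 mice were profiled in 96 AOIs by GeoMx digital spatial profiling. The authors counted deduplicated probe reads per target (GeoMx pipeline 2.3.3.10, with mm10 as the build named in the submitters' processing notes) and deposited scaled reads, a signal whose 75th percentile over targets was 60.205 in every AOI, although the methods describe scaling to nuclei. Whole reads were recovered from the deposited signal and the deposited negative-probe count of each AOI, with 99.95% of values whole within 0.01. The deposited segment table gave read counts, nuclei, the LOQ, and sequencing saturation in percent, and other fields such as AOI names were used as labels; 13 numeric columns per AOI of that table were not used.

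The 3 AOIs per zone of each mouse were averaged and tested as log2(value + 1) with limma 3.58.1 in R 4.3.3, 4 mice per group, for diet within genotype and zone, genotype within diet and zone, zone with the mouse as a block, and the differences of these effects. The pseudocount understates fold changes of low genes. Testing was limited to the 6805 of 7394 genes that exceeded the LOQ in 10 or more of 96 AOIs, with Benjamini-Hochberg adjustment over all of them, and calls were made below an adjusted p of 0.05. The NegProbe-WTX level and the median gene over it were compared between diets by two-sided exact permutation tests over mice. The authors' own comparisons used DESeq2. Here edgeR 4.0.16 and DESeq2 1.42.0 on recovered reads, other scalings, filters and pseudocounts, and each mouse left out in turn were the alternatives. The fits were checked on simulated counts.

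The 18 genes, the gene lists and the tests were chosen with earlier results of these data known. Values per mouse are given for genes called in a comparison of diet or genotype (at most the 6 with the smallest adjusted p in each) and for the 3 of each class with the highest signal over NegProbe-WTX, 14 genes in all, and in full for the comparisons that brought them in or that show the pattern; the rest are given by counts and ranges. Nothing in the labels names litters or cages, so mice of 1 group are taken as independent. Same-numbered mice of different groups were not treated as pairs. In 1 HetKO LFD mouse 5 of 6 AOIs were on another library plate.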

Additional observations from a re-analysis of the deposited data

Results flagged for a closer look

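In 7 of 128 groups of 4 mice tested, 1 mouse stood far from the other 3, its gap to the nearest of them being most of the range of the group. Chance alone marks about 1 in 20 groups.

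In Wt HFD mice, mouse 1 was lowest for Col5a2 in perivenous areas (35.3, the next mouse at 62.9) and for Col6a3 in periportal areas (38.7, the next at 61.7). The same mouse had the lowest NegProbe-WTX of its group in both zones, 20.5 perivenously and 21.2 periportally. In Wt HFD perivenous areas mouse 4 was highest for Col14a1 (52.9, the next at 39.4), and it had the highest NegProbe-WTX of its group (38.9).

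In HetKO LFD periportal areas, mouse 2 was highest for Col4a6 (41.7, the next at 25.8) and for Col27a1 (48.3, the next at 36.97), and its NegProbe-WTX, 21.4, was the highest of that group. Mouse 4 was lowest for Col4a1 in the same group (35.03, the next at 40.2), and its NegProbe-WTX, 16.7, was the lowest. Mouse 1 of HetKO LFD, 5 of whose 6 AOIs were on another library plate, was highest for Col5a3 in perivenous areas (52.6, the next at 40.3). The part of the negative probe and of the plate in these values was not tested.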

How the results depend on the processing

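Collagen genes called on HFD against LFD numbered 11 in HetKO perivenous, 7 in HetKO periportal, 10 in Wt perivenous and 11 in Wt periportal areas. In that order they numbered 2, 2, 3 and 2 after division by NegProbe-WTX (median differences 0.0871, 0.0604, 0.12 and 0.0282), 2, 0, 4 and 1 after its subtraction (HetKO medians 0.61 and 0.60), and 0, 0, 0 and 1 with reads per nucleus (HetKO medians 0.34 and -0.44). With genes above the LOQ in 50% of AOIs, which left 2 collagen genes, 1 was called in each (medians -0.19, -0.0545, -0.38 and -0.41). A required log2 difference of 0.80 left 1 and 0 in HetKO mice, 1 fit of all 4 groups left 0 and 0, edgeR called 11 in HetKO periportal areas, and DESeq2 on rounded AOI means called 4 and 1 in HetKO mice. The cause was not tested, and the shares of all genes called under these settings are not given beside these counts. With the mouse number as a replicate block, Wt perivenous calls were 0 (11, 6 and 10 in the other 3). Under that block limma called 283 (periportal) and 386 (perivenous) of 6805 genes for HetKO against Wt on HFD, where none were called without it, and 0 collagen genes. Same-numbered mice correlated at -0.59 to 0.15 between diets, and 0 to 1 of 4 correlated best with their own number. Between genotypes they correlated at -0.17 to 0.48, and 1 to 3 of 4 did so. The correlation was over 0.1 in at most 3 of 4 pairs of these comparisons. The 2 zones of the same mouse correlated at 0.083 to 0.77, with 3 to 4 of 4 best. The numbers were not taken to pair mice, although for genotype these values do not settle it.

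The 1 zone call in Wt LFD mice was 0 under the 50% filter, division, subtraction, reads per nucleus, the log2 difference of 0.80, both DESeq2 runs and no replicate block. HetKO HFD zone calls were 1 under the 50% filter, 2 after division, 15 with reads per nucleus and 1 by edgeR, which also called 1 in HetKO LFD and 1 in Wt HFD mice. With reads per nucleus 16 were called for HetKO against Wt, LFD periportal, where nuclei per AOI enter every value.

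Single values that turned were Col1a1 in Wt periportal areas, -0.0012 after division, and with reads per nucleus in HetKO periportal areas Col1a1 (-0.18), Col3a1 (-0.22), Col4a6 (-0.26), Col5a2 (-0.24), Col6a3 (-0.29), Col23a1 (-0.13) and the NegProbe-WTX ratio (0.852).

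With 1 mouse left out, diet calls ran 5 to 11, 0 to 11, 2 to 11 and 7 to 14, their medians 0.37 to 0.57, 0.37 to 0.50, 0.60 to 0.98 and 0.77 to 0.94, NegProbe-WTX ratios 1.26 to 1.41, 1.23 to 1.34, 1.46 to 1.78 and 1.66 to 2.03, and ratios of the median gene over NegProbe-WTX 0.814 to 0.873, 0.838 to 0.890, 0.655 to 0.787 and 0.573 to 0.680. HetKO against Wt calls on HFD ran 0 to 5 perivenously and 0 to 2 periportally, and zone calls 0 to 1 in HetKO LFD and Wt LFD mice. The shares of all genes called without each mouse are not given here. Most collagen genes had 19 to 28.5 reads per AOI near the negative probe, which limits what could be detected.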
